A study of Homo sapiens with 36 samples.

Results

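Stable hairpin lines against the 2 upstream kinases of the DNA damage checkpoint, ATM and ATR, were compared with lines against the 2 effector kinases, CHK1 and CHK2 (genes CHEK1 and CHEK2). The comparison took 24 of the 36 arrays of the series and 8 of its 12 groups, with 3 labelled biological replicates in each. The upstream class was shATM-1, shATM-3, shATR-3 and shATR-4, and the effector class was shCHK1-3, shCHK1-4, shCHK2-1 and shCHK2-2. All 8 were made from cells labelled MCF-10A, a non-transformed line of the human mammary epithelium, by lentiviral delivery of a hairpin (short hairpin RNA, written sh before the target) and selection of stable cells. The labels name no DNA damaging agent. Cultures started from 200000 cells in 10 cm plates and were collected at 48 h. Wild type cells, shControl cells and the 2 sh53BP1 lines entered the normalization, the filter that decided which genes were tested and the estimate of the spread between replicate arrays. Each line is 1 selected population, so a kinase class is represented by 4 populations, 2 per target.

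A gene counted when it passed the test of all 12 upstream against all 12 effector arrays and the difference had the same sign within each of 2 line sets. Line set A held shATM-1 and shATR-3 against shCHK1-3 and shCHK2-2. Line set B held shATM-3 and shATR-4 against shCHK1-4 and shCHK2-1. The sets are not in the labels: they follow the split of these same arrays on their first principal component, so each target has 1 line in each set. What the lines of a set share was not tested.

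ATM responds to double-strand breaks and ATR to single-stranded DNA at stalled replication forks. In the classical scheme ATM phosphorylates CHK2 and ATR phosphorylates CHK1, and both effectors restrain the CDC25 phosphatases, so that cells halt before S phase or mitosis. The upstream kinases also have many substrates outside this relay, among them p53 and repair proteins, and CHK1 paces origin firing in undisturbed S phase.

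The target genes were read first. ATM signal (log2, as for all levels and differences here) was lowest in the ATM lines, at 8.11 ± 0.07 in shATM-1 and 7.97 ± 0.32 in shATM-3 (SD, n = 3 arrays, as for all lines). In the other 6 lines the line means ran from 8.61 in shCHK1-3 to 9.07 in shCHK2-1. The arrays of the ATM lines lay at 7.62 to 8.23, and the shCHK1-3 array at 8.24 came next. CHEK1 was at 8.49 ± 0.13 in shCHK1-3 and 8.47 ± 0.05 in shCHK1-4, against 9.55 to 10.09 in the 6 other line means, and no array of the CHEK1 lines overlapped the others. CHEK2 was at 6.86 ± 0.19 in shCHK2-2 and 5.96 ± 0.41 in shCHK2-1, below the 7.09 to 7.98 of the other line means, and the highest array of shCHK2-2 (7.08) overlapped shATM-3 and shATR-4. The 3 ATR probes were above background on 2, 0 and 0 of the 24 arrays, so the knockdown of ATR could not be read. The class differences of these genes, upstream minus effector, were -0.36 ± 0.078 for ATM, 0.60 ± 0.047 for CHEK1 and 0.48 ± 0.096 for CHEK2 (SE, limma adjusted p = 0.00143, 4.27e-10 and 0.000681), and each includes the lines in which that gene was targeted. A second ATM probe, above background on all 24 arrays, differed by -0.52 ± 0.081, and a second CHEK2 probe, above background on 23, by 0.57 ± 0.072. The third probes of ATM and CHEK2 were above background on 1 and 0 arrays.

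Of the markers read, the 6 epithelial ones (EPCAM, CDH1, KRT5, KRT14, KRT8, KRT18) were above background on all 24 arrays. Of 8 luminal markers KRT7, KRT8, KRT18 and ELF3 were above background on all 24 arrays and KRT19 and ESR1 on none. The 4 endothelial markers were above background on none. Of 4 immune markers CD14 and CD68 were above background on all 24 arrays and PTPRC and CD3D on none. Of 8 fibroblast markers THY1 passed background on each of the 24 arrays, and 5 on none. MCF-10A is known to lack the CDKN2A locus, yet CDKN2A, CDKN2B and MTAP were above background on all 24 arrays, which goes against the label, and the cells are called here cells labelled MCF-10A. Between 35% and 37.8% of probes were above background on the upstream arrays and between 33.5% and 38.3% on the effector arrays. The 4 arrays under 35% were all effector arrays. Mean signal was 570 to 676.9 intensity units on the upstream arrays (median 621.5) and 485.9 to 631.8 on the effector arrays (median 542.2).

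Kinase class was a small part of the variation. Of the variance of 11048 genes over the 24 arrays, 5.93% lay between the classes, 50.7% between the line sets, 5.15% in the interaction of class and set, and 23% between replicate arrays of a line. The 2 targets within a class held 7.35% on 2 degrees of freedom, and their interaction with the set a further 7.85%. The first principal component (52.6% of variance) placed the 4 lines of set A at means of 19.1 to 29.9 and those of set B at -29.3 to -15.9. The sets follow this component of the same arrays, so their separation on it and the large share between them come from how the sets were made. On the second component (7.2%) the classes parted within set B, with shATM-3 at 13.8 and shATR-4 at 7.8 against -14.5 for shCHK1-4 and -12.2 for shCHK2-1. In set A the arrays of the classes overlapped on it, with shATM-1 at 6.5 and shATR-3 at 0.3 against -1.4 for shCHK1-3 and -0.3 for shCHK2-2. The 3 arrays of shCHK1-3 were the most spread on the third component (SD 17.5).

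**Figure D1:**
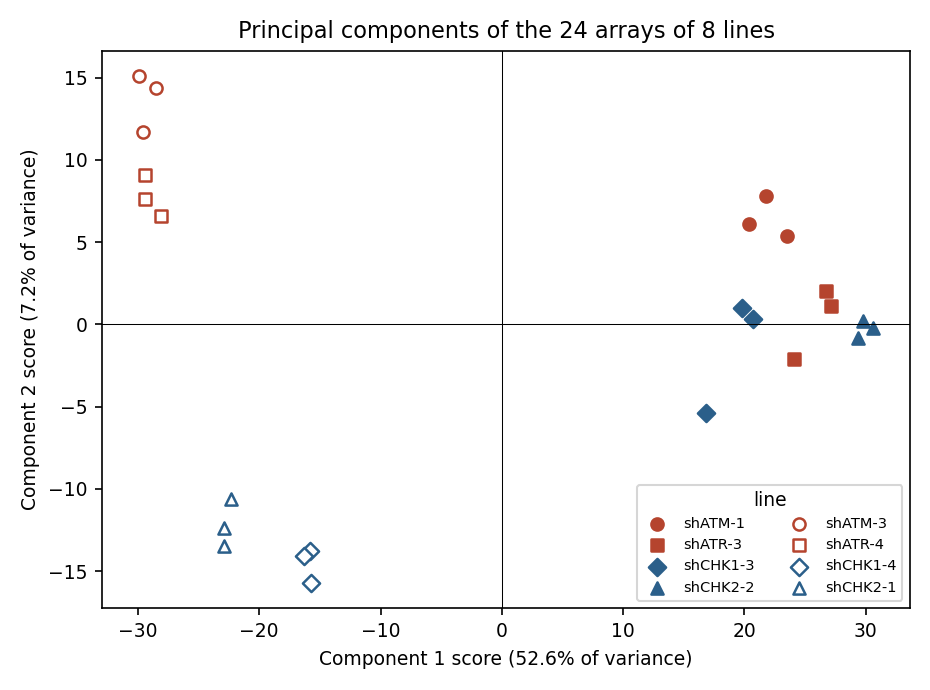
Each point is 1 of the 24 arrays, placed by its scores on principal components 1 (52.6% of variance) and 2 (7.2%), with upstream lines in red, effector lines in blue, filled symbols for line set A and open symbols for line set B. Component 1 separates the line sets, which were made to follow it. Component 2 separates the classes in set B, while in set A they overlap.

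By the rule of the comparison 1579 of 11048 genes (14.3%) were called, 1036 higher (9.38%) and 543 lower (4.91%) in the upstream lines (limma across all 36 arrays, adjusted p under 0.05, same sign in both sets). A further 283 genes passed the test with opposite signs in the 2 sets and were not counted. Over all genes tested the sign was the same in both sets for 6017 (54.5%). The called differences were small, with a median size of 0.25 on the log2 scale and a 90th percentile of 0.43. A size of 0.5 or more was reached by 83 of them (0.751% of genes tested) and a size of 1 or more by 5 (0.0453%). At the threshold, AGRN was the last gene inside (0.15, adjusted p = 0.0495) and SGPL1 the first outside (0.19, adjusted p = 0.0501). Of the 1579, 1284 were above background on all 24 arrays.

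**Figure D2:**
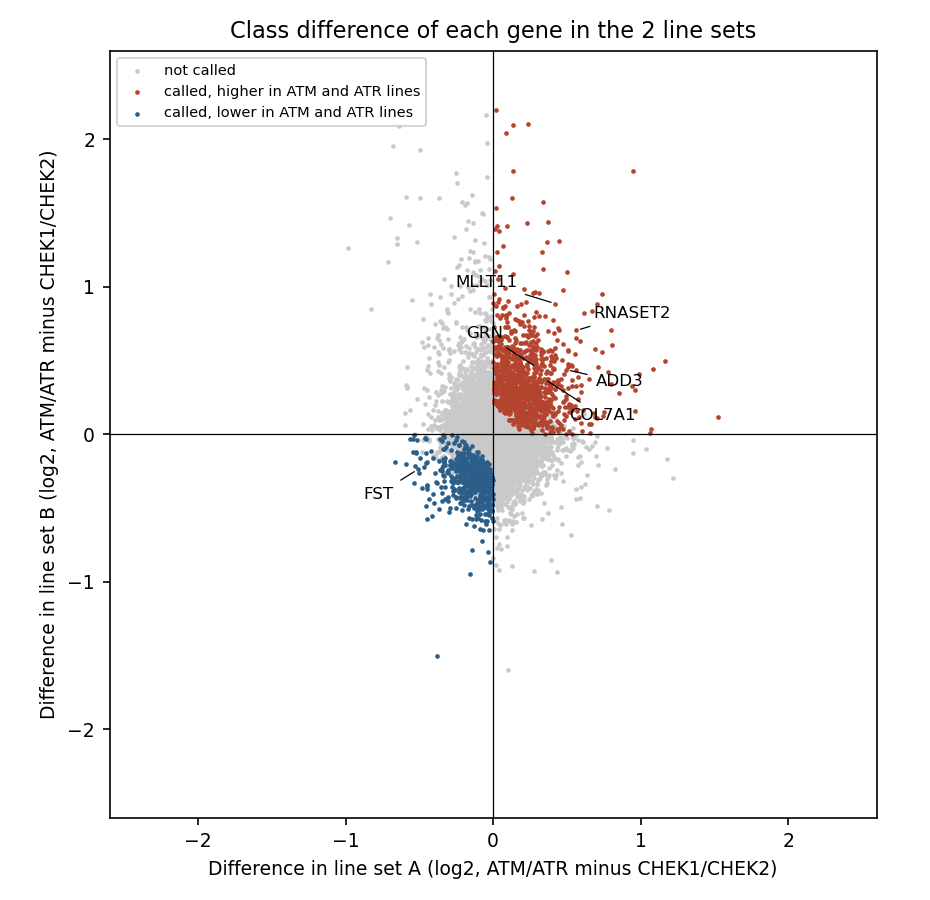
Each point is 1 of the 11048 genes, placed by its class difference (log2, ATM and ATR lines minus CHEK1 and CHEK2 lines) in line set A and in line set B, with the 1036 genes called higher in red and the 543 called lower in blue. The 6 labelled genes are those whose arrays do not overlap between classes within either set, and differences spread more widely in set B than in set A.

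These p-values rest on the spread between replicate arrays of a group, pooled over all 12 groups, and speak of these 8 lines only. With the spread taken from the 24 arrays alone, 1396 genes were called, 924 higher and 472 lower. Taking the line as the replicate of a class, 4 against 4 with the line set as a block, limma called 0 of 11048 genes (0%). The smallest adjusted p was 0.534, and 944 genes (8.54%) had an unadjusted p under 0.05. With no block for the set the count was also 0. A fit that kept the 24 arrays and entered the line as a random block (correlation 0.26) called 55 genes (0.498%), 50 higher and 5 lower, and all 55 were among the 1579. That fit moved the share of called genes that were higher from 65.6% to 90.9%.

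The count also turned on which lines stood for a class. Without the ATM lines 546 genes (4.94%) were called, without the CHEK2 lines 950 (8.6%), without the CHEK1 lines 1537 (13.9%) and without the ATR lines 1930 (17.5%). The higher and lower calls were 367 and 179 without the ATM lines and 643 and 307 without the CHEK2 lines. They were 959 and 578 without the CHEK1 lines and 1278 and 652 without the ATR lines. Counts of list members in these fits are to be read beside these totals. Without shATM-1 alone the count was 857, and without shATM-3 alone 910. Only 136 genes (1.23%) were called by the full rule and again after leaving out each of the 4 targets in turn. Among the 1579 called genes, 501 had the same sign in all 8 pairs of an upstream and an effector line of the same set, 589 in 7 pairs, 402 in 6 and 87 in 5 or fewer. Line pairs between classes differed at 305 genes (shATR-3 against shCHK1-3) to 1968 genes (shATM-3 against shCHK2-1). Pairs within a class and set overlapped that range, from 404 genes for shATM-1 against shATR-3 to 1090 for shCHK1-3 against shCHK2-2.

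For 6 genes (0.0543%) the arrays of the classes did not overlap within either set, and all 6 were called, 5 higher (0.0453%) and 1 lower (0.00905%). RNASET2, which encodes the acid ribonuclease T2 of lysosomes and secretions, was higher in the upstream lines. In set A its arrays ran from 8.91 to 9.27 (median 9.13) in the upstream lines and from 8.33 to 8.86 (median 8.50) in the effector lines. In set B they ran from 9.93 to 10.21 (median 10.06) against 9.18 to 9.52 (median 9.37). The upstream arrays were higher within each set, although most upstream arrays of set A lay below the effector arrays of set B. RNASET2 differed by 0.64 ± 0.056 over the arrays (SE, limma adjusted p = 2.06e-09). Over the 8 line means its SE was 0.091, with an adjusted p of 0.534 in limma, and with the line as a random block its adjusted p was 0.000496.

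GRN, the precursor of the granulins and a secreted and lysosomal glycoprotein, ran from 9.70 to 9.91 in the upstream arrays of set A and from 9.41 to 9.65 in the effector arrays. In set B the ranges were 9.98 to 10.43 and 9.59 to 9.86. The GRN difference was 0.38 ± 0.039 (SE, limma adjusted p = 3.01e-08). ADD3, the gamma subunit of the membrane skeleton protein adducin, differed by 0.47 ± 0.060, and its set A ranges touched at 9.03 to 2 decimals. COL7A1, the collagen of the anchoring fibrils that fix epithelium to stroma, lay at 10.40 to 10.69 against 9.92 to 10.34 in set A and at 11.27 to 11.70 against 10.98 to 11.18 in set B. Its difference was 0.36 ± 0.048.

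MLLT11, known as a fusion partner of KMT2A in leukaemia, differed by 0.65 ± 0.047 (limma adjusted p = 7.41e-11), and by more in set B (0.89) than in set A (0.42). The difference between the sets was -0.47 ± 0.095 (limma adjusted p = 0.00106). Within set B, MLLT11 was at 10.48 ± 0.10 in shATM-3 and 9.66 ± 0.08 in shATR-4, against 8.84 ± 0.10 in shCHK1-4 and 9.53 ± 0.05 in shCHK2-1. The ATR and CHEK2 lines thus lay close together there, and the ATM and CHEK1 lines far apart. The lowest upstream and highest effector array of set B touched at 9.57 to 2 decimals.

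FST was the 1 gene of the 6 that was lower in the upstream lines. It encodes follistatin, a secreted protein that binds and blocks activins. In set A its arrays ran from 12.15 to 12.41 (median 12.31) in the upstream lines and from 12.70 to 13.05 (median 12.76) in the effector lines. In set B they ran from 13.74 to 14.08 (median 13.98) against 14.10 to 14.22 (median 14.19). FST differed by -0.37 ± 0.043 (SE, limma adjusted p = 2.47e-07), by -0.51 in set A and -0.24 in set B. For the other 5 genes the adjusted p over the line means was 0.571 in limma, and with the line as a random block it lay between 0.0133 for GRN and 0.0315 for MLLT11.

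**Figure D3:**
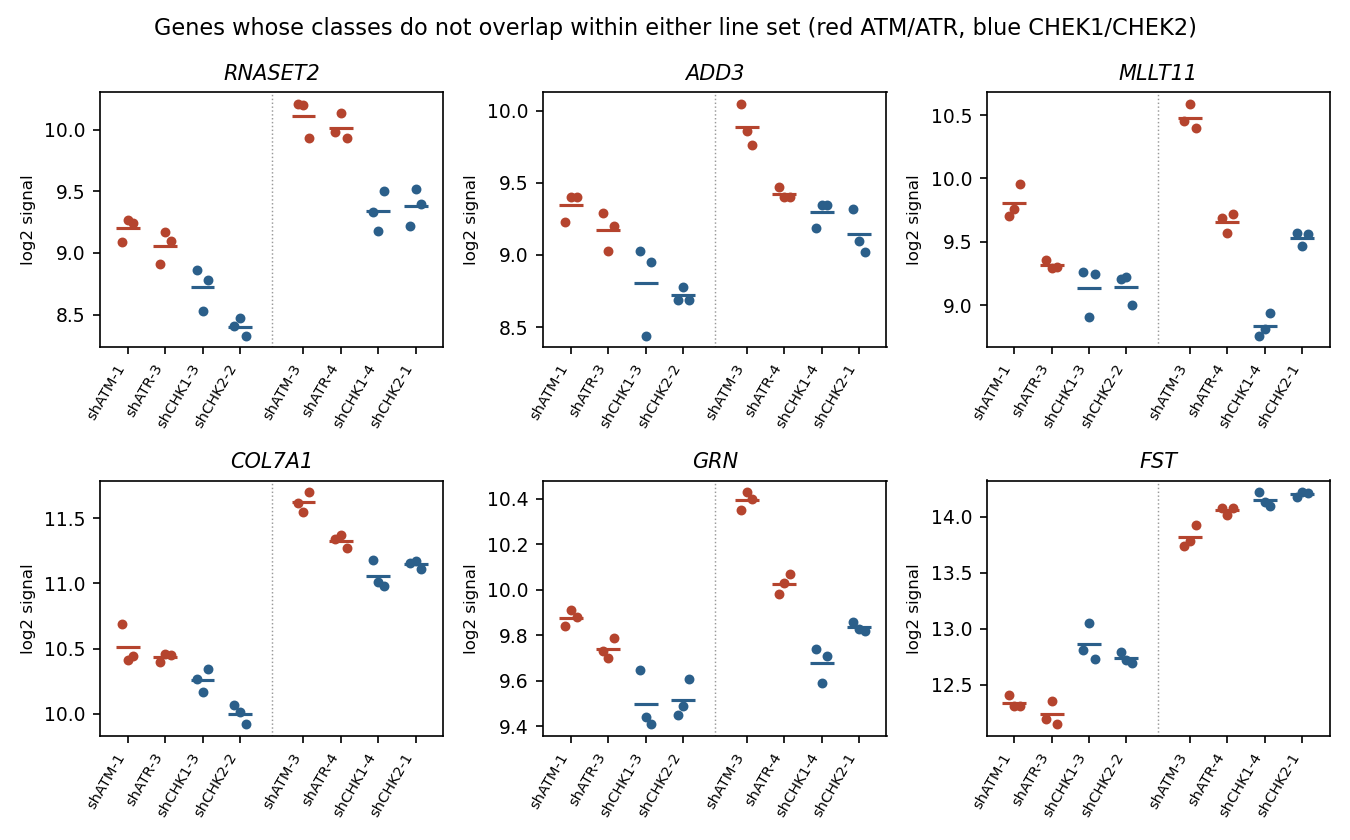
Each panel gives the log2 signal of 1 gene on the 24 arrays (points, 3 per line) with the line means (bars), the 4 lines of set A left of the dotted line and those of set B right of it, upstream lines in red and effector lines in blue. Within each set the red and blue points do not overlap, higher in red for RNASET2, ADD3, MLLT11, COL7A1 and GRN and lower for FST.

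The line means of the classes did not overlap within either set for 864 genes (7.82%), 477 higher (4.32%) and 387 lower (3.5%) in the upstream lines, of which 501 were called (4.53%). VCAN, DMBT1, CD70, MXD4, CD14, KLHL8, IFT46, PEX19 and DSN1 were picked from those 501 after their values were seen and are given as descriptions. For 186 genes (1.68%) all 4 upstream line means lay on one side of all 4 effector line means. VCAN, the large matrix proteoglycan versican, had the largest called difference at 1.37 ± 0.085 (SE, limma adjusted p = 4.15e-12). VCAN was at 7.83 ± 0.30 in shATM-1, 7.82 ± 0.14 in shATR-3, 9.16 ± 0.16 in shATM-3 and 7.29 ± 0.12 in shATR-4. In the effector lines it was at 6.58 ± 0.11 in shCHK1-3, 7.18 ± 0.18 in shCHK2-2, 5.72 ± 0.18 in shCHK1-4 and 7.16 ± 0.29 in shCHK2-1. Within set A no VCAN arrays overlapped, and within set B the lowest shATR-4 array (7.17) lay below the highest shCHK2-1 array (7.35). Its difference was larger in set B than in set A (difference of differences -0.84 ± 0.170, limma adjusted p = 0.000984).

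DMBT1, a secreted scavenger receptor glycoprotein of epithelia, was higher by 0.80 ± 0.093 and CD70, a ligand of the TNF family, by 0.58 ± 0.070. MXD4, a partner of MAX that opposes MYC, was higher by 0.61 ± 0.069. CD14, a co-receptor for lipopolysaccharide best known from monocytes, was higher by 0.58 ± 0.068 while PTPRC was above background on none of the 24 arrays. Its line means lay close in shATR-3 (7.46) and shCHK2-2 (7.44), and in shATM-3 (8.36) and shCHK2-1 (8.28). The CHEK1 lines were lowest (7.09 and 7.04). With the line as a random block, the limma adjusted p was 0.0368 for DMBT1, 0.0289 for CD70, 0.0638 for MXD4 and 0.109 for CD14. On the lower side, KLHL8 fell by 0.43, and IFT46, a subunit of the transport complex of cilia, fell by 0.31. PEX19, the import receptor for peroxisomal membrane proteins, fell by 0.30 and DSN1, a kinetochore subunit, fell by 0.40 (limma adjusted p 1.3e-07, 0.000168, 0.00115 and 0.00147 in that order). With the line as a random block none of these lower genes passed (limma adjusted p 0.0568, 0.0642, 0.146 and 0.176). Within set A alone PEX19 and DSN1 did not pass (limma adjusted p 0.0835 and 0.189).

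The list of AP-1, immediate early and ERK feedback genes, which switch on within minutes of a stimulus, had 7 of 30 measured members higher (23.3%) and 3 lower (10%), against 9.38% and 4.91% of all genes. Its median difference was 0.01, equal to the 0.01 of all genes tested. FOSB, a partner of JUN in AP-1, ran from 7.73 to 9.14 (median 8.65) in the upstream arrays of set A against 6.88 to 7.93 (median 7.25), and from 9.16 to 9.66 (median 9.37) in set B against 8.75 to 9.05 (median 8.85). The classes overlapped in set A and not in set B. FOSB was higher by 0.83 ± 0.131 (SE, limma adjusted p = 3.18e-05), and FOS by 0.56 and DUSP1, a phosphatase that inactivates MAP kinases, by 0.41. For FOS and DUSP1 most of the difference came from set A (0.96 and 0.68) rather than set B (0.15 and 0.14). Line means of FOS in set A were 11.08 ± 0.16 in shATM-1 and 10.91 ± 0.14 in shATR-3 against 10.48 ± 0.30 in shCHK1-3 and 9.59 ± 0.21 in shCHK2-2. FOSL1, an AP-1 subunit, KLF2, a transcription factor, and PHLDA1, an early response protein, were the lower members (-0.35, -0.30 and -0.28). Without the ATM lines, or without the CHEK1 lines, 3 members were called higher and 1 lower. Of all genes, 367 were higher and 179 lower without the ATM lines, and 959 and 578 without the CHEK1 lines. FOS, DUSP1, FOSL1, KLF2 and PHLDA1 were singled out after their values were seen.

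Genes of the ATF4 and unfolded protein response list were called in both directions. ATF4 is the transcription factor that raises amino acid synthesis and transport genes when amino acids run short or the endoplasmic reticulum is stressed. Of 28 measured members 4 were higher (14.3%) and 7 lower (25%) in the upstream lines, with a median of 0.04. The 7 lower genes were ASNS, PHGDH, PSAT1, CBS, MTHFD2, SLC7A11 and DDIT3, the first 6 of which act in amino acid synthesis, one-carbon metabolism or cystine uptake. The 4 higher genes were ATF3 and CEBPB, both transcription factors, and CRELD2 and HSP90B1, both proteins of the endoplasmic reticulum. PSAT1 and the members without a printed test were named after their values were seen. The promoters of the 3 lower genes with the largest difference in their weaker set, ASNS, PHGDH and PSAT1, and of ATF3, the higher member with the largest difference, are shown because ATF4 is known to regulate all of them. Each runs from 250 bases before to 50 after the gene start, 5′ to 3′ on the gene's strand, from RefSeq (GRCh38.p14): ASNS at chr7:97872359-97872658 (minus strand), PHGDH at chr1:119711684-119711983 (plus), PSAT1 at chr9:78296875-78297174 (plus) and ATF3 at chr1:212565157-212565456 (plus). Capitals mark the motif TGATGNAA, the core of the element bound by ATF4 with C/EBP proteins.
ASNS: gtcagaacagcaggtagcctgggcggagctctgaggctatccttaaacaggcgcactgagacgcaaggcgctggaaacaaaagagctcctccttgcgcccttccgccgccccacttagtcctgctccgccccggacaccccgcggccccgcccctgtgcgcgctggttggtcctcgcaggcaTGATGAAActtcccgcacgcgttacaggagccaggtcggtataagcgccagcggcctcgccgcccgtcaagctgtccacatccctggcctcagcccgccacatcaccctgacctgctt
PHGDH: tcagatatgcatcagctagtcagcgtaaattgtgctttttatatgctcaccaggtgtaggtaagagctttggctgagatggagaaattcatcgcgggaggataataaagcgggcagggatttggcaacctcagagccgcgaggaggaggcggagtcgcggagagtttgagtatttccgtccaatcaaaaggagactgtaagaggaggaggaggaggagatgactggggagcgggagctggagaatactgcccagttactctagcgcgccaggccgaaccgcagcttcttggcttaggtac
PSAT1: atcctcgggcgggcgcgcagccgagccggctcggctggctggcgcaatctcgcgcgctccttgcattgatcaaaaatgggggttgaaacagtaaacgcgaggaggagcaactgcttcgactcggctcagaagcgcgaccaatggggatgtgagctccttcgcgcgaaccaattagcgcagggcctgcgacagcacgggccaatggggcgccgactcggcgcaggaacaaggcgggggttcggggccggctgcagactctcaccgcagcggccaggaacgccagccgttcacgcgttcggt
ATF3: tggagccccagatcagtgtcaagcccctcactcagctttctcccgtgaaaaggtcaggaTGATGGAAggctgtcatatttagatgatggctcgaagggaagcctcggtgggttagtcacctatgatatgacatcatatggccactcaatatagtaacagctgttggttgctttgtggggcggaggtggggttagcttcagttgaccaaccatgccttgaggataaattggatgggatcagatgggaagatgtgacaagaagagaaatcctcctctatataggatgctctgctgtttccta
The motif was searched on both strands. It lay at -68 in ASNS (TGATGAAA) and at -191 in ATF3 (TGATGGAA), counting the start base as 0, and these letters were not in the windows of PHGDH and PSAT1. Of 35116 promoters of this length 1270 (3.62%) held it. Only the window shown was read for each gene, so a match at another start of the gene is not given. Whether ATF4 acts at these matches was not tested.

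ASNS, asparagine synthetase, ran from 8.88 to 9.21 (median 9.07) in the upstream arrays of set A against 9.15 to 9.51 (median 9.38) in the effector arrays, and from 9.80 to 10.21 (median 10.04) in set B against 10.29 to 10.77 (median 10.61). The classes overlapped in set A and not in set B. ASNS was lower by 0.42 (SE 0.043, limma adjusted p = 4.31e-08), and it was called in each of the 4 fits that left out a target. PHGDH, the first enzyme of serine synthesis from glycolysis, was at 10.30 to 10.61 against 10.59 to 10.93 in set A and 11.43 to 11.81 against 11.69 to 12.28 in set B, so that the classes overlapped at their edges in both. Its difference was -0.34 ± 0.047 (limma adjusted p = 4.29e-06). PSAT1, the next enzyme of that pathway, was lower in set A without overlap (9.69 to 10.12 against 10.35 to 10.49) and overlapped in set B (10.35 to 10.82 against 10.62 to 11.09). ATF3 was higher by 0.65 ± 0.131 (limma adjusted p = 0.000786). Its replicates spread widely in set B, with SDs of 0.42 in shATR-4, 0.50 in shCHK1-4 and 0.60 in shCHK2-1. Without the ATM lines 0 members of this list were called higher and 4 lower, beside 367 and 179 of all genes.

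In the DNA damage checkpoint list, 2 of 27 measured members were higher (7.41%) and 5 lower (18.5%), with a median of -0.04. The higher members were the targets CHEK1 and CHEK2, and ATM was among the lower. The other lower members were CDC25C, the phosphatase that activates CDK1 at mitotic entry (-0.31 ± 0.067), MRE11, the nuclease of the break sensor complex (-0.27 ± 0.069), TIPIN, which stabilises stalled forks (-0.25 ± 0.060), and H2AX, the histone phosphorylated at breaks (-0.16 ± 0.053). Their limma adjusted p-values were 0.00131, 0.00727, 0.00363 and 0.0327. CDC25C ran from 6.78 to 7.17 (median 7.08) in the upstream arrays of set A against 6.97 to 7.59 (median 7.13). In set B it ran from 6.88 to 7.38 (median 7.15) against 7.50 to 7.94 (median 7.60). The arrays thus overlapped in set A and not in set B. Of the list, CDC25C alone was called in each of the 4 fits that left out a target. Without the ATM lines 1 member was called lower, beside 179 of all genes.

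Proliferation genes were lower in the upstream lines of set B. Of 40 measured G2/M and mitosis genes 15 were called lower (37.5%) and 0 higher, with a median difference of -0.15. The median was -0.03 in set A and -0.28 in set B. Within set B alone 29 of the 40 passed as lower, where 8.33% of all genes did, and within set A 0 passed as lower (1.33% of all genes) and 1 as higher. The class difference itself differed between the sets for 16 of the 40, against 1190 of all 11048 genes (10.8%). KIF23, a motor of the central spindle in cytokinesis, was at 9.37 to 9.76 against 9.56 to 10.00 in set A and at 9.03 to 9.51 against 9.39 to 9.96 in set B, with overlap in both. KIF23 differed by -0.31 ± 0.068 and AURKA, a kinase of the spindle poles, by -0.24 ± 0.047 (limma adjusted p = 0.00146 and 0.000692). CCNA2, the S and G2 cyclin A2, singled out after its values were seen, had line means of 10.76 and 10.90 against 10.84 and 10.98 in set A and of 9.93 and 9.97 against 10.44 and 10.30 in set B. In bulk RNA, fewer cells in a state and less RNA per cell cannot be told apart.

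Of 45 measured G1/S and replication genes 11 were lower (24.4%) and 0 higher, with a median of -0.11. They included MCM2, a subunit of the replicative helicase (-0.30), CDC45, its activator (-0.27), and CHAF1A, a chaperone that deposits histones behind forks (-0.23, limma adjusted p = 0.0046, 0.000349 and 0.0349). The median of that list was -0.01 in set A, where 0 passed (4.93% of all genes did). It was -0.21 in set B, where 19 passed as lower (8.33% of all genes). Of 32 homologous recombination and Fanconi genes 5 were lower (15.6%) and 0 higher. Among them were UBE2T, the ubiquitin-conjugating enzyme of the Fanconi pathway (-0.34), and FANCB of its core complex (-0.33). These counts were lowest without the ATM lines, as was the count over all genes. There 2 G2/M genes, 0 G1/S genes and 1 homologous recombination gene were called lower, beside 179 of all genes. Without the ATR lines the counts were 24, 15 and 9, beside 652 of all genes. Without the 4 effector arrays under 35%, an alternative added after seeing the data, they were 10, 8 and 4, beside 386. In the full fit 543 of all genes were called lower.

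**Figure D4:**
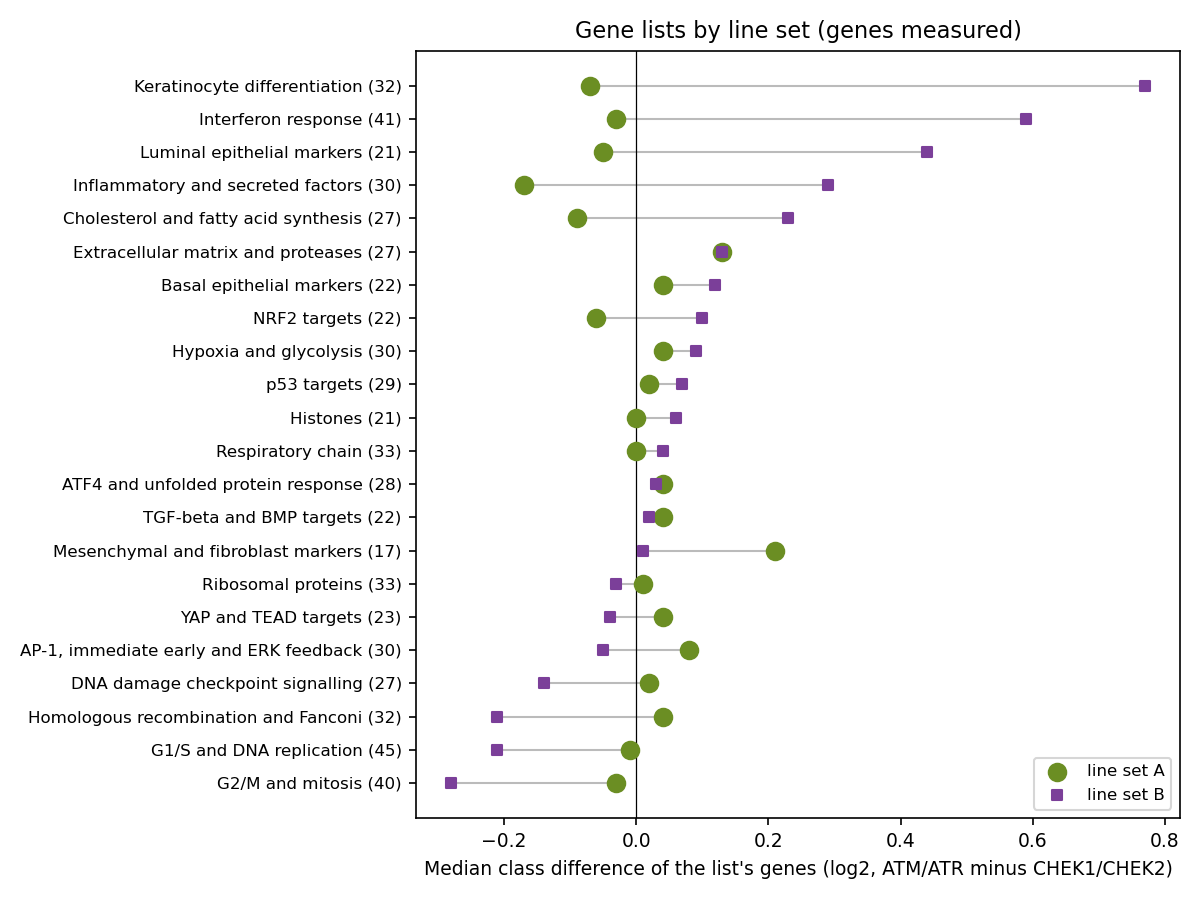
Each row is 1 gene list, with the median class difference of its measured genes (log2, upstream minus effector lines, number of genes in brackets) in line set A (circle) and line set B (square). The median of keratinocyte differentiation genes was -0.07 in set A and 0.77 in set B, and that of G2/M genes -0.03 and -0.28.

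Interferon response genes, which encode antiviral effectors and antigen processing proteins, were higher in the upstream lines of set B. Within set B 30 of 41 measured genes passed as higher (11.8% of all genes did) with a median of 0.59. Within set A 1 passed as higher (3.6% of all genes) and 0 as lower, with a median of -0.03. The sign rule left 10 called higher (24.4%) and 0 lower. Only 24 of the 41 genes were above background on all 24 arrays, and 8 of the 10 called. The other members could pass the filter through the lines where they were readable. The set B count and median therefore describe the list and support nothing further. IFI6, an interferon-induced mitochondrial protein singled out after its values were seen, ran from 6.47 to 7.54 (median 6.80) in the upstream arrays of set A against 6.16 to 7.21 (median 6.82). In set B it ran from 9.44 to 10.90 (median 10.17) against 7.42 to 8.64 (median 8.22). The classes overlapped widely in set A and not at all in set B.

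GBP1, an interferon-induced GTPase that attacks pathogen membranes, was higher in both sets, by 0.28 in set A and 0.96 in set B (0.62 ± 0.058 over both, limma adjusted p = 5.03e-09). It ran from 8.39 to 8.69 against 7.84 to 8.44 in set A and from 8.54 to 8.89 against 7.62 to 8.04 in set B. The 2 sets differed by -0.68 ± 0.116 in this gene (limma adjusted p = 0.000114). IRF9, the DNA-binding subunit of the interferon-activated ISGF3 complex, was higher by 0.49 ± 0.053 (limma adjusted p = 9.14e-08), and PARP9, an interferon-induced partner of the ubiquitin ligase DTX3L, by 0.46 ± 0.096 (limma adjusted p = 0.00098). In set B IRF9 was at 9.75 ± 0.09 in shATM-3, 9.07 ± 0.11 in shATR-4, 8.93 ± 0.18 in shCHK2-1 and 8.42 ± 0.11 in shCHK1-4. The called list members GBP2 and DCN, the latter a mesenchymal one, were above background on none of the 24 arrays and entered through other groups. Without the CHEK1 lines 21 interferon genes were called higher, and in the other 3 fits without a target 8 to 14. Of all genes 959 were called higher without the CHEK1 lines, and 367 to 1278 in the other 3 fits.

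Keratinocyte differentiation genes followed the same division of sets. Within set B 27 of 32 measured genes passed as higher (11.8% of all genes did), with a median of 0.77. Within set A 0 passed as higher (3.6% of all genes) and 5 as lower (1.33%), with a median of -0.07. Only 14 of the 32 were above background on all 24 arrays, and 3 of the 8 (25%) that the sign rule left as higher, with 0 lower. Members such as KLK6 (6 of 12 upstream and 3 of 12 effector arrays) and KLK11 (5 and 2) passed the filter through the lines where they were readable, so these counts and medians describe the list and support nothing further. S100P, a calcium-binding protein of differentiating and cancerous epithelia, was at 9.93 ± 0.11 in shATM-3 and 11.22 ± 0.02 in shATR-4, against 7.87 ± 0.10 in shCHK1-4 and 9.08 ± 0.09 in shCHK2-1. In set A the S100P line means were 7.16, 6.91, 7.32 and 6.29 for shATM-1, shATR-3, shCHK1-3 and shCHK2-2. S100P differed by 2.10 in set B and 0.23 in set A (difference of differences -1.87 ± 0.147, limma adjusted p = 1.39e-10). Inflammatory and secreted factors split likewise. In set B 12 of 30 passed as higher (11.8% of all genes) and 1 as lower (8.33%). In set A 0 passed as higher (3.6%) and 8 as lower (1.33%). The sign rule left 6 of the 30 higher (20%) and 2 lower (6.67%). Among them were IL1RN, the antagonist of interleukin-1 receptors (0.84 ± 0.095, above background on 10 of 12 effector arrays), and IL1B, its agonist (-0.20 ± 0.067). Of the 30 genes 24 were above background on all 24 arrays, and of the called members 4. The other members could pass the filter through the lines where they were readable, so these counts also only describe the list.

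The sets disagreed beyond these lists. Within set A 545 genes (4.93%) passed, 398 higher and 147 lower. Within set B 2219 (20.1%) passed, 1299 higher and 920 lower. Both sets passed with the same sign at 135 genes (1.22%) and with opposite signs at 77 (0.697%). The named genes with opposite signs were chosen by the size of that difference, so their values describe them.

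TEAD2, a DNA-binding partner of YAP, was higher in the upstream lines of set A by 1.22, from 8.84 to 9.25 against 7.21 to 8.45. In set B it was lower by a difference of -0.29, from 8.0 to 8.89 against 8.47 to 9.12. The classes did not overlap in set A and overlapped in set B, and EMP3, a membrane glycoprotein, behaved likewise. EMP3 ran from 9.79 to 10.22 against 8.75 to 9.76 in set A and from 9.69 to 10.81 against 10.49 to 11.28 in set B. SCG5, the chaperone 7B2 of prohormone convertase 2, differed by 0.53 in set A and -0.68 in set B. The lower level in set B did not hold for every pair of lines. There shATM-3 lay above shCHK1-4 in TEAD2 (8.83 against 8.63), EMP3 (10.7 against 10.54) and SCG5 (9.03 against 8.77). In all of them shATR-4 lay below both effector lines of the set, and shATM-3 below shCHK2-1.

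In the other direction, LCN2, the iron-siderophore carrier lipocalin-2, differed by -0.50 in set A and 1.92 in set B. Its arrays ran from 6.87 to 7.53 against 7.32 to 8.10 in set A, with overlap, and from 11.74 to 12.19 against 9.89 to 10.22 in set B, without. IL36G, an epithelial cytokine of the interleukin-1 family, ran from 6.13 to 6.67 against 6.90 to 7.29 in set A and from 9.85 to 11.04 against 7.42 to 9.40 in set B. The classes did not overlap in either set, with opposite order. S100A8 and S100A9, which together form calprotectin, were lower in set A (-0.59 and -0.65) and higher in set B (1.61 and 1.33), and SAA2, an acute phase apolipoprotein, differed by -0.64 and 2.09.

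**Figure D5:**
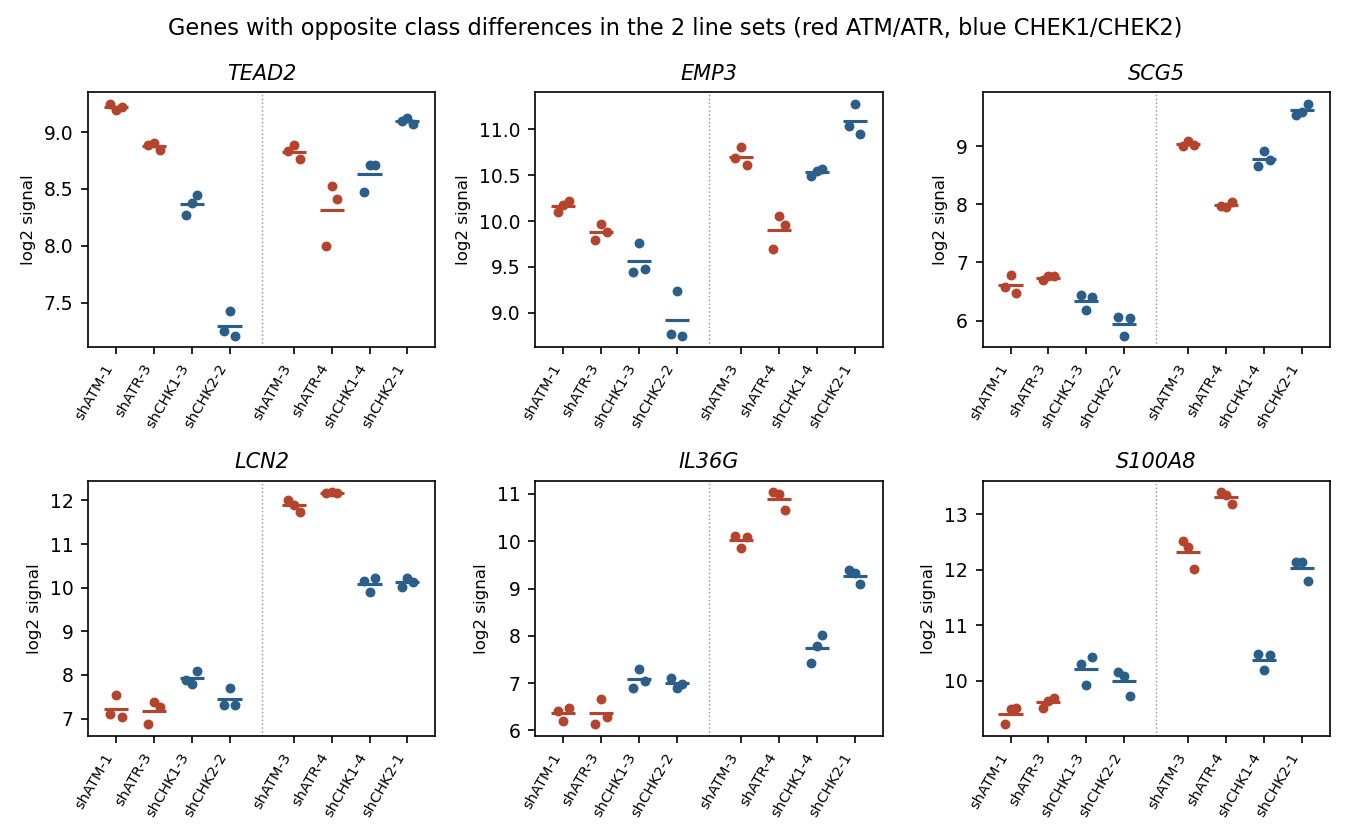
Each panel gives the log2 signal of 1 gene on the 24 arrays (points, 3 per line) with line means (bars), set A left and set B right of the dotted line, upstream lines in red and effector lines in blue. TEAD2, EMP3 and SCG5 are higher in red in set A and lower in set B on average, and LCN2, IL36G and S100A8 the reverse.

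Extracellular matrix and protease genes were among the lists with similar medians in both sets (0.13 in each, 0.14 over both). Of 27 measured members 7 were higher (25.9%) and 0 lower. MMP9, gelatinase B, had the largest difference of them (0.96 ± 0.090, limma adjusted p = 5.71e-09), mostly in set B (1.58) and with overlapping classes in set A (0.34). In set B MMP9 was at 8.76 ± 0.23 in shATM-3 and 9.91 ± 0.05 in shATR-4 against 7.71 ± 0.04 in shCHK1-4 and 7.80 ± 0.04 in shCHK2-1. TIMP1, an inhibitor of matrix metalloproteinases, was higher by 0.27 ± 0.041 (limma adjusted p = 1.36e-05) and called in all 4 fits without a target. Without the ATM lines 3 members of the list were called higher and 1 lower, and without the ATR lines or the CHEK1 lines 11 were called higher. Of all genes 367 were higher and 179 lower without the ATM lines. Higher calls over all genes numbered 1278 without the ATR lines and 959 without the CHEK1 lines.

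Of 17 measured mesenchymal and fibroblast genes 6 were higher (35.3%) and 0 lower, with a median of 0.05, and 3 of the 6 were above background on all 24 arrays. Within set A 5 passed as higher (3.6% of all genes did) and 1 as lower (1.33%), with a median of 0.21. Within set B 2 passed as higher (11.8% of all genes) and 3 as lower (8.33%), with a median of 0.01. S100A4, a calcium-binding protein of motile cells, was at 6.71 to 7.20 against 6.16 to 6.86 in set A and at 8.07 to 8.66 against 7.18 to 7.53 in set B, overlapping in set A alone. S100A4 differed by 0.64 ± 0.078 (limma adjusted p = 7.87e-07) and CDH2, N-cadherin, by 0.43 ± 0.086 (limma adjusted p = 0.000647). Beside these, the summed signal of the 8 fibroblast markers was 341 to 535 intensity units on the upstream arrays and 330 to 598 on the effector arrays. COL3A1, PDGFRA, PDGFRB, DCN and LUM were above background on none. Of 21 luminal genes 5 were higher (23.8%) and of 22 basal genes 4 (18.2%), with 0 lower in either, and 3 of the 5 luminal ones were above background on all 24 arrays. The luminal list divided by set, against the same shares of all genes. It had 0 higher and 2 lower in set A (median -0.05) and 12 higher and 1 lower in set B (median 0.44). Without the ATM lines 2 mesenchymal genes were called higher and 3 lower, beside 367 and 179 of all genes. Without the CHEK2 lines 2 mesenchymal, 2 luminal and 1 basal gene were called higher, beside 643 of all genes.

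The remaining lists are given against the 9.38% of all genes called higher and 4.91% called lower. Without the ATM lines 367 of all genes were called higher, and without the CHEK2 lines 643. Without the 4 effector arrays under 35% the number over all genes was 837. For p53 targets 6 of 29 were higher (20.7%) and 1 lower (3.45%), and 0 were higher without the ATM lines or without the CHEK2 lines. Hypoxia and glycolysis genes had 7 of 30 higher (23.3%) and 1 lower (3.33%), and 1 higher without the ATM lines. NRF2 targets had 5 of 22 higher (22.7%) and 3 lower (13.6%), the higher ones including the aldo-keto reductase AKR1C2 (0.47) and the lower ones SLC7A11, the cystine transporter. SLC7A11 was above background on 8 of 12 upstream and 10 of 12 effector arrays, and the called AKR1B10 on 8 of 12 in each class, so no size is given for them. TGF-beta and BMP targets had 4 of 22 higher (18.2%), among them BAMBI, a decoy receptor (0.55), and PMEPA1, a feedback inhibitor of SMAD signalling (0.38), and 1 lower (4.55%). Of these called members 2 were above background on all 24 arrays. BAMBI was above background on 11 of 12 effector arrays. Its line means overlapped between the classes in both sets, with shCHK2-1 (7.04) above shATM-3 (6.73). YAP and TEAD targets had 4 of 23 higher (17.4%) and 1 lower (4.35%), and 2 of these called members were above background on all 24 arrays. Histones had 4 of 21 higher (19%) and 3 lower (14.3%). Sterol and fatty acid synthesis genes had 3 of 27 higher (11.1%) and 2 lower (7.41%), and respiratory chain subunits 3 of 33 higher (9.09%) and 1 lower (3.03%), the higher shares being near that of all genes. Without the 4 effector arrays under 35% the numbers called higher were 3 for p53 targets, 4 for hypoxia and glycolysis, 3 for inflammatory factors, 2 for NRF2 targets, 2 for basal genes and 2 for histones. None of 33 ribosomal protein genes was called, with a median of 0. Of the 2 measured endothelial genes 0 were called, and of the 2 measured immune cell genes 1, CD14.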

How the data were processed

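Expression was read on 36 Illumina BeadChip arrays in 12 groups of 3. The signal file holds intensity per probe, neither normalized nor background subtracted by the authors, judged from its name and values. Beside each signal, per the file headers, stands a detection p-value. The series values deposited by the authors are on the log2 scale, and quantile normalization of the log2 signals matched them to within 0.0013. No source used here gives slide or scanner, so no batch could be checked.

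Signals were corrected and normalized with neqc of limma 3.58.1 (offset 16) in R 4.3.3 with the package data.table (1.17.8), and figures drawn with Python 3.11.15 and matplotlib 3.10.9. A probe was kept if some group had detection p under 0.01 on each of its 3 arrays. Of 47231 probes 30113 had 1 gene symbol, 8 several and 17110 none, and the brightest probe stood for each of 11048 genes. limma fitted 12 group means to 36 arrays, with Benjamini-Hochberg adjustment over all genes and a threshold of 0.05, and class effects over 8 line means with the line set as a block. The fits were tested on simulated data. The number of arrays limits the precision within these 8 lines, and the number of lines, 4 in each class, limits what can be said of a class. Replicate numbers did not pair samples (mean correlation of deviations -0.000629 for the same number, 0.000385 for others).

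Named genes were the 4 targets, genes whose arrays did not overlap within either set, genes above background in 1 class alone (0 found), genes called over line means (0 found), up to 3 called members of lists with 4 or more called, called checkpoint members, and the 6 largest opposite differences between sets in each direction. Genes named outside this rule are marked in the text. The sets, the lists and the comparison were chosen with earlier results of these data known. Alternatives were the deposited values, no background correction, no filter on dim probes, other gene filters, a replicate block, the 24 arrays alone, a random block for the line, and leaving out arrays, lines or targets.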

Additional observations from a re-analysis of the deposited data

Results flagged for a closer look

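The class difference itself differed between the line sets for 1190 of 11048 genes (limma contrast of set A minus set B, adjusted p under 0.05), and the named genes among them follow with that contrast on the log2 scale. Values above 0 mean that the upstream lines stood higher relative to the effector lines in set A than in set B.

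Among genes called with opposite signs in the 2 sets, the contrast was 1.51 for TEAD2, 1.29 for EMP3, 1.21 for SCG5, 1.02 for SCARNA18, 1.00 for PRSS23 and 0.95 for MMD. It was -2.72 for SAA2, -2.63 for IL36G, -2.42 for LCN2, -2.20 for S100A8, -1.99 for SERPINB13 and -1.98 for S100A9. These 12 were chosen for this difference.

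Among genes called by the rule of the comparison, the sign within the sets was the same by the rule itself, but in set A the differences of KRT14, MUC1, FOXA1 and IGFBP3 did not pass (limma adjusted p 0.809, 0.825, 0.632 and 0.906). The contrast was positive for CHEK1 (0.36), the replication factor CDC45 (0.36), the histone variant MACROH2A2 (0.58) and the complex I subunit NDUFA9 (0.37). For CDC45 and NDUFA9, which were lower in the upstream lines, a positive contrast means a larger fall in set B. Among interferon and inflammatory genes it was -0.68 for GBP1, -0.49 for IRF9 and -0.94 for IL1RN. Among epithelial genes it was -1.87 for S100P, -0.54 for KRT14, -0.34 for CD24, -0.63 for FOXA1 and -0.58 for MUC1. Among matrix, secreted and mesenchymal genes it was -0.84 for VCAN, -1.24 for MMP9, -0.64 for S100A4 and -0.60 for DMBT1. The fitted contrast was -1.34 for IGFBP3, which was above background on 6 of 12 upstream and 1 of 12 effector arrays, so its size is not a measured difference. It was also -0.47 for MLLT11, -0.38 for AKR1C2 and -0.27 for FST, and for FST, lower in the upstream lines of both sets, the fall was larger in set A.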

How the results depend on the processing

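The 1579 calls (1036 higher, 543 lower) moved by over 1.5 times under these alternatives: without shATM-1 to 857 (564 and 293), without shATM-3 to 910 (620 and 290), without the ATM target to 546 (367 and 179), without the CHEK2 target to 950 (643 and 307), and with the line as a random block to 55 (50 and 5), which also stands against the 0 of the line means. The cause was not tested. Leaving out 1 array at a time gave 1362 to 1682 calls (899 to 1054 higher, 458 to 641 lower), 992 to 1314 differences between sets, 399 to 650 calls in set A, 1815 to 2501 in set B and 0 over the line means. The deposited log2 values called 1660 genes, 1466 of them shared with the same sign. Without the 4 arrays under 35% the count was 1223, with 1033 shared. A replicate block called 1547 genes (1021 and 526), although the numbers do not pair the samples. No named gene reversed under the alternatives run on single genes. Leaving out lines or targets, and the random block, were not among those alternatives. MUC1, SLC7A11 and SNORD22 were called in 0 of the 4 fits that left out a target. With no filter on dim probes 10 of 100 named values missed the threshold, and without the 4 arrays 14 did. SLC7A11, EBP, IL1B, IL11, DDB2, CHAF1A, PHLDA3, H2AX and SNORD22 lost their call most often. Dim probes, such as those of ATR, could not be read.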

Other observations

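Lysosomal genes were read after RNASET2 and GRN had been seen, so the counts below are a description of a list chosen on these values. Both genes are members of the list and are included in its counts. Of 45 measured lysosomal genes 18 were called higher in the upstream lines (40%, against 9.38% of all genes) and 0 lower (against 4.91%), with a median difference of 0.14 against 0.01 over all genes tested. Within set A 10 passed as higher (3.6% of all genes did), and within set B 19 as higher (11.8% of all genes) and 1 as lower, with medians of 0.10 and 0.21. The largest among those above background on all 24 arrays, after RNASET2, were LAPTM4B, a membrane protein of late endosomes and lysosomes (0.54 ± 0.052), CLCN7, the chloride-proton exchanger of lysosomes (0.46 ± 0.069), and IGF2R, the receptor that sorts enzymes carrying mannose 6-phosphate (0.44 ± 0.047), with limma adjusted p of 9.26e-09, 1.48e-05 and 6.68e-08. The fucosidase FUCA1 was higher by 0.36, the acid lipase LIPA by 0.34 and the membrane protein LAMP2 by 0.35. CTSB, GLA, GUSB and NPC2 had differences between -0.05 and 0.00 that did not pass. GAA and IDUA were above background on 6 and 4 of the 12 upstream arrays and on 0 of the 12 effector arrays. Of the 18, 5 were called in each of the 4 fits that left out a target, RNASET2 and GRN among them.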
